A study of Mus musculus with 10 samples.

Results

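The 10 genes described here encode heat shock proteins and chaperonins: Hspa1a, Hspa1b, Hspa8, Hsph1, Hsp90aa1, Hsp90ab1, Hspd1, Hspe1, Dnajb1 and their transcription factor Hsf1. They were found by gene symbol among the 55573 rows of the count files, and each symbol matched 1 row. The RNA came from bone marrow stem and progenitor cells of the blood lineage, taken from C57BL/6 mice aged 16 weeks. All mice had received 500 cGy of total body radiation 6 weeks before, so no unirradiated group is part of the comparison. The 2 groups were 5 libraries from mice given saline under the skin (Saline) and 5 from mice given epidermal growth factor by the same route (EGF). No genetic alteration is named in the labels. Neither the sort gate nor the number of mice behind each library is stated, so the p-values reflect how far the libraries of a group lie apart, and part of that spread may be technical.

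Heat shock proteins are molecular chaperones, which bind unfolded or partly folded proteins and help them reach or keep their shape. Hsp70 proteins such as those of Hspa1a, Hspa1b and Hspa8 work in cycles of ATP use that are started by J-domain partners such as Dnajb1 and reset by exchange factors such as Hsph1. Hsp90 proteins act later on kinases and other signalling proteins, and the Hspd1 and Hspe1 products form the folding chamber of mitochondria and its lid. Under heat or other protein stress the factor Hsf1 binds heat shock elements, inverted repeats of GAA, before its target genes. In unstressed cells the constitutive members (Hspa8, Hsp90ab1) are abundant, while Hspa1a and Hspa1b are the classic inducible members.

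Of the promoter stretches below, those of Hspa1a, Hspa1b and Hspe1 are shown because these genes had the lowest EGF values relative to Saline among the 10 genes. They also show how alike the Hspa1 pair is. The Hsph1 stretch is printed beside them, though that gene's log2 fold change was near 0 (-0.08). All stretches are the 150 bases before the transcript start (RefSeq, GRCm38.p6), read 5′ to 3′ on the gene's strand. Capitals mark exact matches to the heat shock element forms given in the next paragraph. The Hspa1a stretch is chr17:34972157-34972306 (minus strand), that of Hspa1b chr17:34959239-34959388 (minus), that of Hspe1 chr1:55087998-55088147 (plus) and that of Hsph1 chr5:149636337-149636486 (minus).
Hspa1a: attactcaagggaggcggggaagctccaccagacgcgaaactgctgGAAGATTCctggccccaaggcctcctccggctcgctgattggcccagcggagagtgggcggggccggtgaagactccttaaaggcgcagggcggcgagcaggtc
Hspa1b: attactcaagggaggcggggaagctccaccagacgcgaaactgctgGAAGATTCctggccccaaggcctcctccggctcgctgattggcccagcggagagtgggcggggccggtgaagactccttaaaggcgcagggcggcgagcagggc
Hspe1: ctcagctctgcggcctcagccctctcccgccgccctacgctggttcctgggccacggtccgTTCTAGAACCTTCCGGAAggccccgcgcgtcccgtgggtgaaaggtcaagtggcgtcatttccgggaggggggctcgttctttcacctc
Hsph1: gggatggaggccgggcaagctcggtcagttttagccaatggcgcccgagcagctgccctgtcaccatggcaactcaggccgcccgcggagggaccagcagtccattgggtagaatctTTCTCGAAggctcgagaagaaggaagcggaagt

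The elements searched were the 2-unit forms GAANNTTC and TTCNNGAA, each its own reverse complement, and the 3-unit form GAANNTTCNNGAA on both strands, which contains both 2-unit forms. The promoter table held windows of 300 bases (250 before to 50 after the start) for 6 of the 10 genes: Hspa1a, Hspa1b, Hspd1, Hspe1, Hsph1 and Dnajb1. Of the 32851 windows of that length in the table, 15.1% held a 2-unit and 0.603% a 3-unit element. A 2-unit element was present in windows of 5 of the 6 genes, and a 3-unit element in those of 3, namely Hspe1, Hspd1 and Hsph1. In Hspa1a and in Hspa1b the exact match began 104 bases before the start, and the whole windows of the pair were identical at 296 of 300 bases. The printed stretches of the pair differed at 1 base. Hspe1 and Hspd1 are transcribed in opposite directions from neighbouring starts, and 1 of the Hspd1 windows overlapped the Hspe1 window by 285 bases. The element in the Hspe1 stretch, 89 bases before its start, is therefore the same DNA as the one 144 bases before that Hspd1 start. In the Hsph1 window the 3-unit element lay after the start and is not in the printed stretch. No match was found in the Dnajb1 windows, which says only that these exact letters are not there.

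Total counts ranged from 6805106 to 8370820 per library. EGF replicate 5 stood apart from the rest: 12731 genes had a count there, against 18734 to 20046 in the other 9 libraries, and of 12874 genes tested, 33.7% lay above and 47.7% below all the others in that library. It held the highest share of Malat1, a nuclear RNA (1.62% of counts, against 0.336% to 0.908%). Results are therefore given with and without it. All 12 stem and progenitor markers looked at (among them Kit, Cd34, Flt3, Gata2 and Mpo) reached 1 CPM (counts scaled to the library's total) in at least 1 library. Procr was at 0 CPM in EGF replicate 5. The summed level of the 12 was 3023 to 5920 CPM in Saline and 3340 to 3926 CPM in EGF libraries. Mpo alone was at 1307 to 4372 CPM in Saline and 1429 to 2144 CPM in EGF libraries, so the sum says less about the other markers. Levels here are CPM scaled by TMM, a factor that evens out library composition.

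Levels of the 10 genes spanned a wide range in these cells. On the scale of CPM per kilobase of merged annotated exons, Hsp90ab1 was highest with 1433 ± 108 (SD, n = 5 Saline libraries). Hspa8 (436 ± 39.6) and Hsp90aa1 (377 ± 39.5) followed, with overlapping ranges of 372 to 475 and 334 to 436. Then came Hspd1 (120 ± 10.1), Hspe1 (61.4 ± 7.50), Dnajb1 (24.0 ± 1.26), Hsph1 (14.3 ± 2.19) and Hsf1 (5.64 ± 0.969), whose Saline ranges did not overlap with their neighbours' among these 5. Hspa1b (3.83 ± 3.16) and Hspa1a (2.21 ± 1.77) were lowest and the most variable, with a coefficient of variation of 82.6% and 79.9% between Saline libraries against 5.24% to 17.2% for the other 8 genes. The Saline ranges of Hspa1b and Hsf1 overlapped, as did those of Hspa1a and Hspa1b. Part of this order depends on the length used. Per kilobase of the longest coding transcript, a choice added after the data were seen, Hspa8 (784 ± 71.1, range 668 to 854) lay clear above Hsp90aa1 (451 ± 47.4, range 401 to 522). On that scale Hsph1 (27.2 ± 4.19) had a higher mean than Dnajb1 (25.6 ± 1.34) with overlapping ranges, and the ranges of Hspd1 and Hspe1 and of Dnajb1 and Hsf1 overlapped too. Hsp90ab1 was highest and the Hspa1 pair lowest on both scales. Neither scale corrects for sequence shared with other genes. The share of 50-base stretches that also occur in other annotated genes ranged from 0% for Hsph1 and Hsf1 to 73.2% for Hspa8. It was 58.5% for Hsp90aa1, 60.3% for Hspa1a and 62.3% for Hspa1b, but 4.49% for Hsp90ab1. How reads from such stretches were counted is not stated, so their part in this order was not tested.

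**Figure D1:**
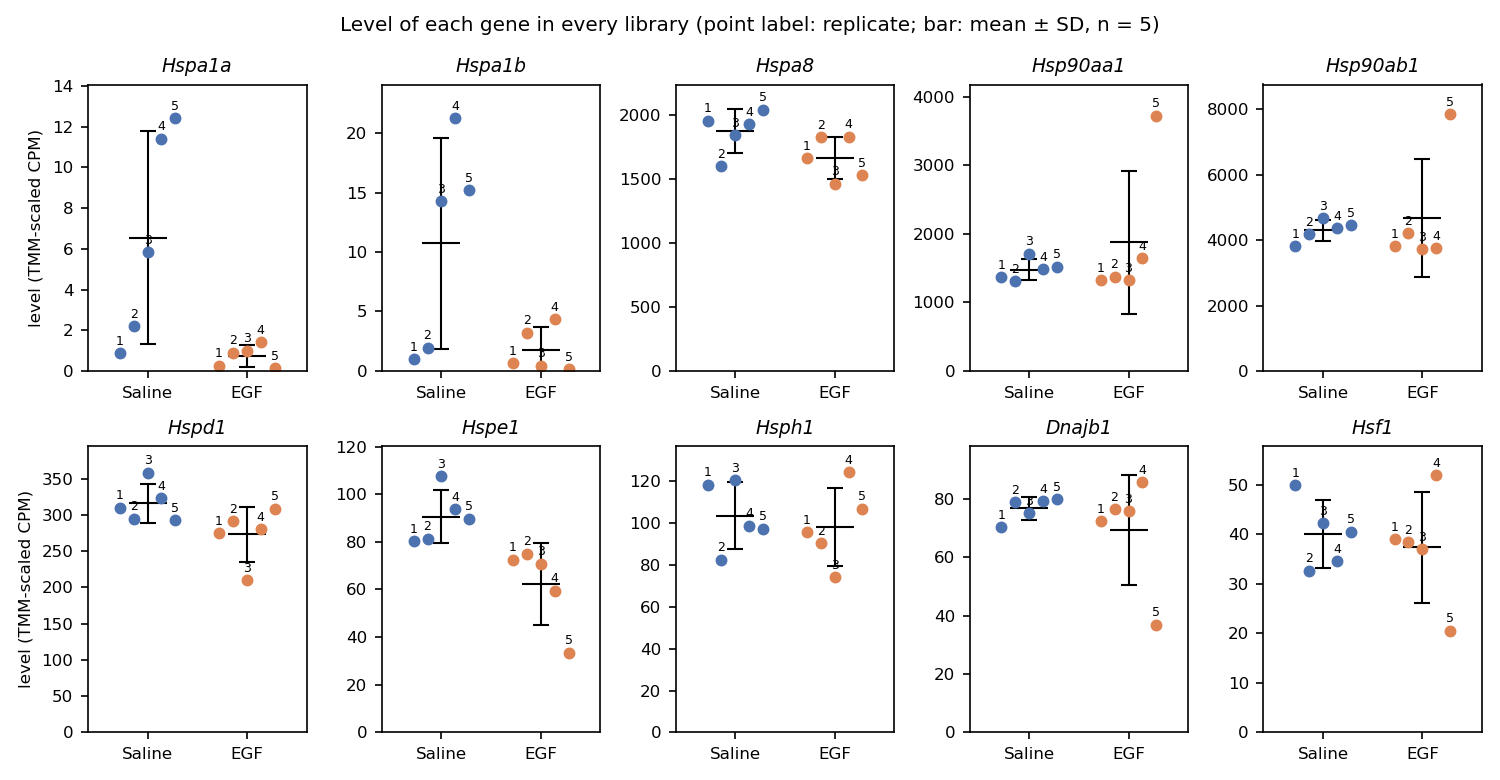
Level of each of the 10 genes (vertical axes, TMM-scaled CPM, each from 0) in the 5 Saline and 5 EGF libraries, with the replicate number at each point and the mean ± SD of each group. Hspa1a and Hspa1b were highest in Saline replicates 3, 4 and 5, Hspe1 was lower in every EGF library than in any Saline library, and EGF replicate 5 lay far from the other EGF libraries for Hsp90aa1, Hsp90ab1, Dnajb1 and Hsf1.

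The comparison asks whether chaperone transcripts differed in irradiated progenitors with EGF. By edgeR's quasi-likelihood test, adjusted over 12874 genes, 0 of the 10 genes passed the threshold of 0.05, where 0.00777% of all genes did (1 gene). At an unadjusted p under 0.05 there were 3 (Hspa1a, Hspa1b and Hspe1), all lower with EGF, beside 8.87% of all genes at that level and 2.73% lower; the first 2 share reads. The log2 fold change was below 0 for 8 of 10, against 51.5% of all genes, with a median of -0.16 against -0.01. Without EGF replicate 5 there were again 0 of 10 past the adjusted threshold (0.0611% of all genes, 0.0305% lower) and 8 of 10 below 0 (50.0%), with a median of -0.15. The 8 were not the same genes: Hsp90aa1 and Hsp90ab1 moved below 0, and Dnajb1 and Hsf1 above it. At an unadjusted p under 0.05 there were then 4 lower, Hspd1 being added (15.8% of all genes, 7.39% lower).

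DESeq2, run on the same libraries, depended on its filter for the genes of lowest count. With its default filter on mean counts it gave no adjusted p for Hspa1a and Hspa1b and called 0 of the other 8 genes, where 0.531% of all genes were called (0.184% lower). On all rows with a count it called 1 of 10, Hspa1a (adjusted p = 0.0214; 0.206% of all genes, 0.11% lower), and without its own filter it called Hspa1a as well (adjusted p = 0.0332; 0.354%, 0.157% lower). Without EGF replicate 5 it called 2 of 10, Hspa1a (adjusted p = 0.0308) and Hspe1 (adjusted p = 0.0225), both lower with EGF, where 2.49% of all genes were called and 1.03% were called lower.

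**Figure D2:**
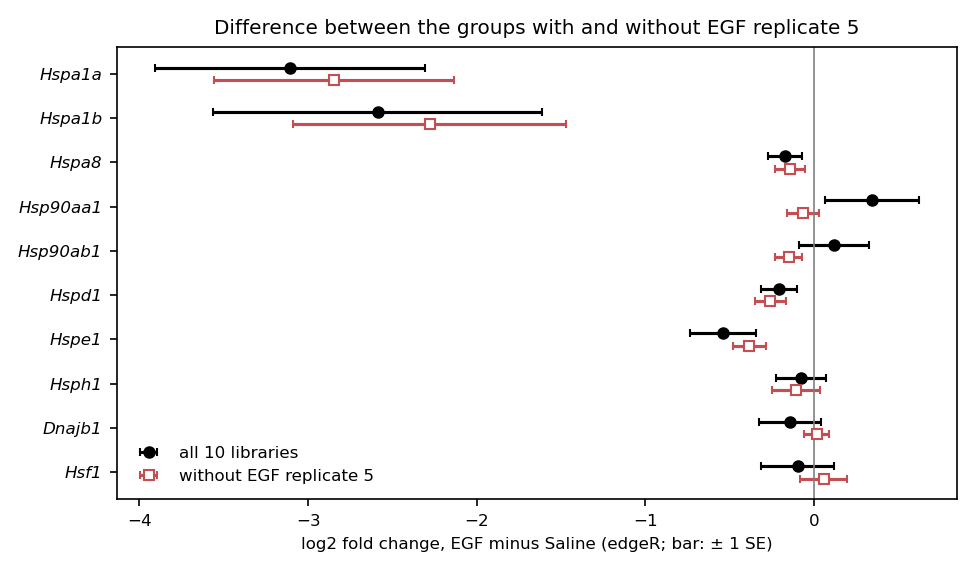
Log2 fold change of each gene (horizontal axis, EGF minus Saline, edgeR) with ± 1 SE, from all 10 libraries (filled circles) and without EGF replicate 5 (open squares). Hspa1a and Hspa1b lie between -3.11 and -2.28 with wide errors, Hspe1 at -0.54 and -0.38, and the other 7 genes between -0.26 and 0.34.

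Among the inducible Hsp70 genes, Hspa1a and Hspa1b showed the widest differences of the 10 genes. Hspa1a lies on chromosome 17 from 34969190 to 34972156 (GRCm38, minus strand) and Hspa1b on the same chromosome from 34956436 to 34959238 (minus strand), each with 1 exonic segment and 9951 bases apart. Hspa1a had 7, 17, 49, 85 and 93 counts in Saline replicates 1 to 5, or 0.888, 2.21, 5.82, 11.4 and 12.4 CPM. In EGF replicates 1 to 5 it had 2, 7, 7, 12 and 1 counts, or 0.251, 0.902, 0.999, 1.42 and 0.140 CPM. Saline replicates 2 to 5 were thus above all EGF libraries, replicates 3, 4 and 5 by the most, while Saline replicate 1 lay within the EGF range, so the groups overlapped. The mean was 6.55 ± 5.24 CPM in Saline and 0.741 ± 0.536 CPM in EGF libraries (SD, n = 5 each), with a log2 fold change of -3.11 (SE 0.80, edgeR adjusted p = 0.552).

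Hspa1b had 8, 15, 120, 158 and 114 counts in Saline replicates 1 to 5, or 1.02, 1.95, 14.3, 21.2 and 15.2 CPM. In EGF replicates 1 to 5 it had 5, 25, 3, 37 and 1 counts, or 0.627, 3.22, 0.428, 4.37 and 0.140 CPM. The same 3 Saline libraries were high, and Saline replicates 1 and 2 lay inside the EGF range. Its log2 fold change was -2.59 (SE 0.98, edgeR adjusted p = 0.552), and -3.25 (SE 1.09, edgeR adjusted p = 0.621) without EGF replicate 4, its highest EGF library. Of the 50-base stretches of the Hspa1b transcript, 62.3% occur word for word in Hspa1a, and 58.8% of those of Hspa1a occur in Hspa1b, so the split of reads between the pair depends on the authors' counting. Exons of Gm20481 on the other strand cover 19.0% of the exonic bases of Hspa1a.

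With the counts of the pair summed into 1 row before the fit, which does not depend on that split, Saline replicates 1 to 5 had 15, 32, 169, 243 and 207 counts. EGF replicates 1 to 5 had 7, 32, 10, 49 and 2. Saline replicates 3, 4 and 5 thus held 80.8% of all reads of the pair. The sum was at 17.3 ± 13.8 CPM in Saline and 2.50 ± 2.35 CPM in EGF libraries (SD, n = 5 each; log2 fold change -2.77, SE 0.88, edgeR adjusted p = 0.552). Without EGF replicate 5 the value was -2.48 (SE 0.74, edgeR adjusted p = 0.179), so the low level with EGF did not rest on that library.

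Saline replicates 4 and 5, which had high Hspa1 levels, also differed from Saline replicates 1 and 2 in other measures. Saline replicate 3, also high for Hspa1, lay near replicates 1 and 2 in the mitochondrial, Malat1 and late neutrophil measures. It lay above them in Mpo and in the summed monocyte and macrophage markers. Mitochondrially encoded genes took 7.31%, 7.43%, 7.30%, 6.66% and 5.89% of counts in Saline replicates 1 to 5 and 8.59%, 8.38%, 9.43%, 10.045% and 7.73% in EGF replicates 1 to 5. The groups did not overlap in this share, and it was lowest in Saline replicates 4 and 5. The Malat1 share was also lowest there, at 0.336% and 0.342%, while Saline replicates 1 to 3 had 0.421% to 0.444% and EGF libraries 0.387% to 1.62%. The summed level of 8 monocyte and macrophage markers was 45.3, 69.0, 87.4, 150 and 101 CPM in Saline replicates 1 to 5 and 43.8 to 72.9 CPM in EGF libraries. Of the 8 markers, 7 reached 1 CPM in at least 1 library, none was at 0 in all libraries, and C1qa was under 1 CPM in all. Most of the sum came from Ly6c2 (19.9, 31.0, 45.2, 77.7 and 44.9 CPM in Saline replicates 1 to 5) and Csf1r (8.88, 21.1, 25.0, 43.7 and 36.7 CPM). Cd68 was also higher in Saline replicates 3, 4 and 5 than in 1 and 2. C1qa and C1qb were instead highest in Saline replicate 1. Adgre1 and Vcam1 were lower in Saline replicates 3 and 5 than in replicate 2. Mpo, the myeloperoxidase gene of granulocyte and monocyte progenitors, was at 1307, 2384, 3004, 4372 and 3192 CPM in Saline and 1429 to 2144 CPM in EGF libraries. The 8 late neutrophil markers summed to 7.23, 42.4, 38.7, 386 and 127 CPM in Saline replicates 1 to 5 and to 48.0, 92.3, 2.43, 7.55 and 516 CPM in EGF replicates 1 to 5. Among Saline libraries they were highest in replicates 4 and 5, as the Hspa1 pair was, and among EGF libraries in replicate 5, where the pair was lowest. Not all markers ordered the Saline libraries this way. The stromal and endothelial markers summed to 204, 265, 378, 823 and 184 CPM in Saline replicates 1 to 5. Plasma cell markers summed to 1466, 941, 681, 1288 and 712 CPM, and megakaryocyte markers to 180, 132, 115, 119 and 129 CPM. Erythroid markers, at 30.8, 39.6, 51.2, 82.4 and 52.1 CPM, were higher in replicates 3, 4 and 5. The part of these measures in the Hspa1 result was not tested. In bulk RNA, fewer cells of a type and less RNA per cell cannot be told apart.

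**Figure D3:**
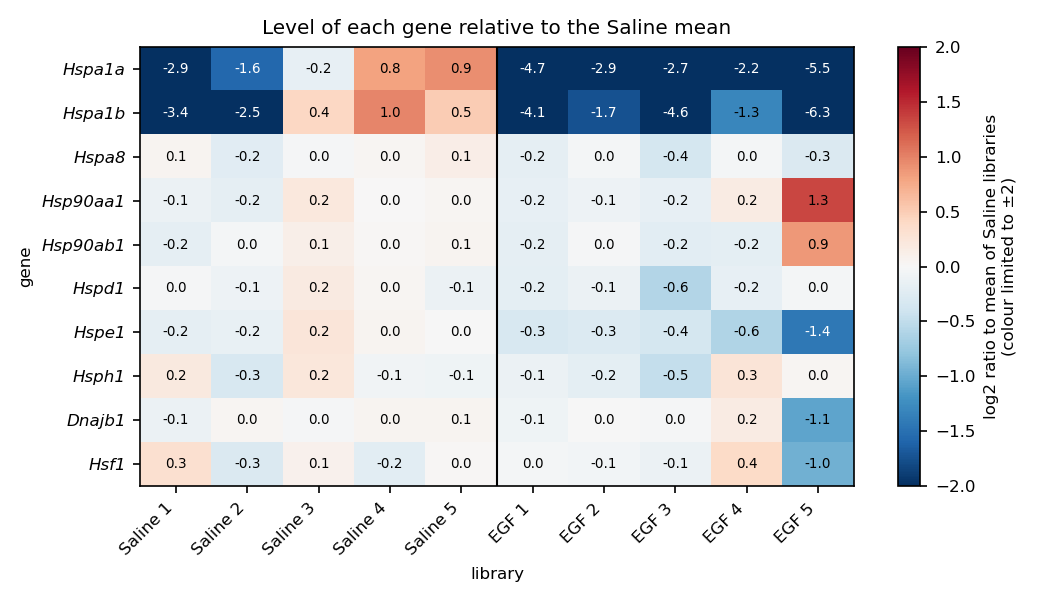
Log2 ratio of each gene's level to the mean of the Saline libraries (rows: genes; columns: libraries; the colour scale is capped, and the numbers are the values). Hspa1a and Hspa1b are far below the Saline mean in Saline replicates 1 and 2 and in all EGF libraries, and EGF replicate 5 differs from the other EGF libraries in both directions.

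By edgeR's unadjusted p, the mitochondrial chaperonin gene Hspe1 (0.0181) ranked between Hspa1a (0.00249) and Hspa1b (0.0223). Its partner Hspd1 (0.0755) came after Hspa1b. Hspd1 (Hsp60, the chamber) lies on chromosome 1 from 55077835 to 55088243 (minus strand) and Hspe1 (Hsp10, the lid) from 55088132 to 55091307 (plus strand), so the annotated genes overlap head to head by 112 bases; without a stated strand setting, reads there cannot be assigned to 1 of them. Hspe1 was at 80.3, 81.3, 108, 93.7 and 89.7 CPM in Saline replicates 1 to 5 and at 72.5, 75.1, 70.8, 59.5 and 33.5 CPM in EGF replicates 1 to 5. The highest EGF value was thus under the lowest Saline value. Of the 10 genes it was the 1 whose groups did not overlap, where 1.65% of all genes were lower in that way. The mean was 90.5 ± 11.1 CPM in Saline and 62.3 ± 17.2 CPM in EGF libraries (SD, n = 5 each; log2 fold change -0.54, SE 0.19, edgeR adjusted p = 0.552). Without EGF replicate 5, the lowest library, the log2 fold change was -0.38 (SE 0.10, edgeR adjusted p = 0.149).

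Hspd1 was at 310, 295, 358, 323 and 292 CPM in Saline replicates 1 to 5 and at 274, 291, 210, 281 and 309 CPM in EGF replicates 1 to 5. The lowest level was in EGF replicate 3, and EGF replicate 5 lay inside the Saline range. The log2 fold change was -0.21 (SE 0.11, edgeR adjusted p = 0.553). With EGF replicate 5 left out it was -0.26 (SE 0.09, edgeR adjusted p = 0.22), and the groups then did not overlap, as for 2.36% of all genes in the lower direction. Of the 50-base stretches of Hspd1, 44.8% occur in other annotated transcripts, mainly the processed copy Hspd1-ps3, which had 16 to 34 counts per library. For Hspe1 the share was 36.1%.

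The ratio of the partners was steady in most libraries. Per kilobase of exon, the Hspd1 to Hspe1 ratio was 2.15, 2.02, 1.86, 1.92 and 1.82 in Saline replicates 1 to 5. It was 2.11, 2.16, 1.66, 2.63 and 5.14 in EGF replicates 1 to 5. Its size depends on the lengths used, but its order over libraries does not. EGF replicate 5 was the library in which the pair came apart, by a low Hspe1 level beside an Hspd1 level within the Saline range.

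The Hsp90 genes of the cytosol were abundant members, and both were highest in EGF replicate 5. Hsp90aa1, the stress-responsive form (chromosome 12 from 110690605 to 110702728, minus strand), was at 1369, 1314, 1714, 1483 and 1524 CPM in Saline replicates 1 to 5 and at 1321, 1374, 1323, 1651 and 3728 CPM in EGF replicates 1 to 5. The first 4 EGF libraries lay within the Saline range, and the last was above all others. Its log2 fold change was 0.34 (SE 0.28, edgeR adjusted p = 0.668) with all libraries and -0.06 (SE 0.09, edgeR adjusted p = 0.768) without EGF replicate 5. Of its 50-base stretches, 58.5% occur in other annotated transcripts, led by Gm12346, which had 79 to 485 counts per library.

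Hsp90ab1, the constitutive form (chromosome 17 from 45567775 to 45573271, minus strand), was at 3809, 4185, 4663, 4371 and 4466 CPM in Saline replicates 1 to 5. It was at 3811, 4224, 3718, 3751 and 7864 CPM in EGF replicates 1 to 5. Again EGF replicate 5 alone was high, and 2 of the other EGF libraries were below the lowest Saline library. The log2 fold change was 0.12 (SE 0.21, edgeR adjusted p = 0.84) with all libraries and -0.15 (SE 0.08, edgeR adjusted p = 0.381) without that library. The ratio of Hsp90ab1 to Hsp90aa1 per kilobase was 3.57 to 4.18 in Saline libraries and 3.78, 4.03, 3.68, 2.98 and 2.77 in EGF replicates 1 to 5.

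**Figure D4:**
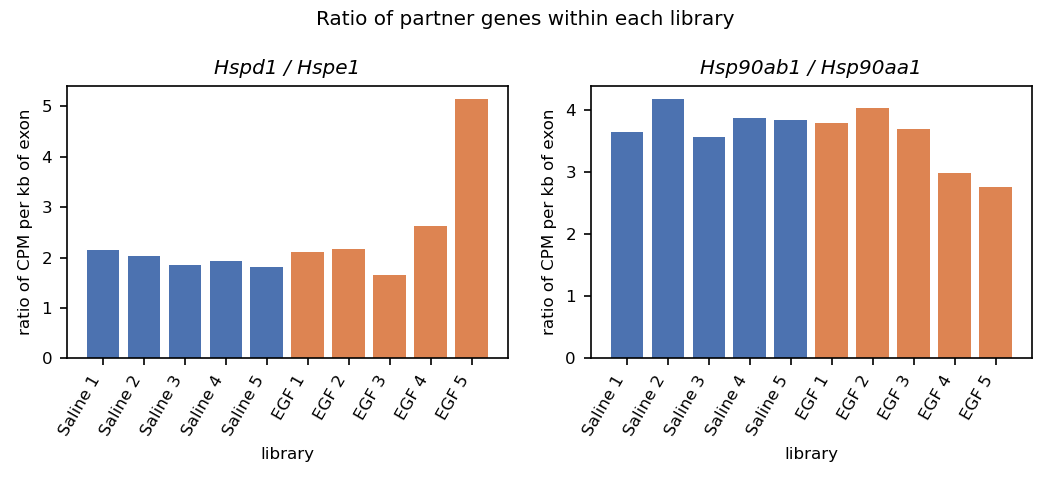
Ratio of CPM per kilobase of exon between partner genes in each library (vertical axes, from 0), Hspd1 over Hspe1 on the left and Hsp90ab1 over Hsp90aa1 on the right. The Hspd1 to Hspe1 ratio is 1.66 to 2.63 in 9 libraries and 5.14 in EGF replicate 5, and the Hsp90 ratio is lowest in EGF replicates 4 and 5.

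Hspa8, the constitutive Hsp70 (Hsc70) that also strips clathrin from vesicles, lies on chromosome 9 from 40800984 to 40810087 (plus strand). It was at 1958, 1600, 1842, 1933 and 2045 CPM in Saline replicates 1 to 5 and at 1663, 1828, 1466, 1833 and 1534 CPM in EGF replicates 1 to 5. Every EGF library lay below the Saline median, but Saline replicate 2 lay inside the EGF range. The mean was 1876 ± 170.3 CPM in Saline and 1665 ± 167 CPM in EGF libraries (SD, n = 5 each; log2 fold change -0.17, SE 0.10, edgeR adjusted p = 0.59). It shares 73.2% of its 50-base stretches with other annotated transcripts, led by Gm15459 with 11 to 137 counts per library. Small nucleolar RNAs of its introns (Snord14c, Snord14d and Snord14e) overlap 6.09% of its annotated exonic bases.

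Hsph1 (Hsp110, an exchange factor for Hsp70; chromosome 5 from 149614287 to 149636376, minus strand) was at 118, 82.5, 121, 98.8 and 97.4 CPM in Saline replicates 1 to 5 and at 95.6, 90.3, 74.2, 124 and 107 CPM in EGF replicates 1 to 5. The groups overlapped over most of their range, with the highest and the lowest library both in the EGF group. Its log2 fold change was -0.08 (SE 0.15, edgeR adjusted p = 0.858). None of its 50-base stretches occurs in another annotated gene. Its levels did not separate Saline replicates 3, 4 and 5 from the others as those of the Hspa1 pair did: Saline replicate 1, low for Hspa1, had the second highest Hsph1 level of the Saline libraries. Other members followed the pair more closely. Spearman's rho (rank correlation) with the summed pair over the 10 libraries was 0.758 for Hspe1 and Dnajb1, 0.697 for Hspa8 and 0.43 for Hspd1. For Hsf1 it was 0.273, for Hsph1 0.261 and for each Hsp90 gene 0.224. The 3 libraries highest for the pair were also the 3 highest for Hspe1. These values span both groups and carry no test.

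Dnajb1 (Hsp40, the J-domain partner of inducible Hsp70; chromosome 8 from 83608193 to 83612653, plus strand) varied least between Saline libraries, but not between EGF libraries. It was at 70.4, 79.0, 75.2, 79.4 and 80.0 CPM in Saline replicates 1 to 5 and at 72.4, 76.5, 75.9, 85.9 and 37.0 CPM in EGF replicates 1 to 5. The first 4 EGF libraries lay among or above the Saline libraries, and EGF replicate 5 was below all others. The log2 fold change was -0.14 (SE 0.19, edgeR adjusted p = 0.795), and 0.02 (SE 0.07, edgeR adjusted p = 0.939) without that library.

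Hsf1, the transcription factor that binds heat shock elements (chromosome 15 from 76477422 to 76501913, plus strand), was at 50.0, 32.7, 42.3, 34.5 and 40.6 CPM in Saline replicates 1 to 5. It was at 39.0, 38.4, 37.1, 52.0 and 20.6 CPM in EGF replicates 1 to 5. Saline replicates 4 and 5, which had the highest Hspa1a levels, were not the highest for Hsf1, and EGF replicate 5 was the lowest of all. The log2 fold change was -0.10 (SE 0.22, edgeR adjusted p = 0.876) and 0.06 (SE 0.14, edgeR adjusted p = 0.876) without EGF replicate 5. Over the 10 genes, EGF replicate 5 was above the other 9 libraries for 2 (the Hsp90 genes) and below them for 5 (Hspa1a, Hspa1b, Hspe1, Dnajb1 and Hsf1). That is near the shares of 33.7% and 47.7% over all genes.

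Beyond the 10 genes, 8 lists of other chaperone genes held 81 genes, of which 69 were tested and 0 passed edgeR's test over all genes. With all libraries, 44 of the 69 had a log2 fold change below 0, where 51.5% of all genes did. Results without EGF replicate 5 are given list by list, and 50.0% of all genes were below 0 in that fit. The median of the 69 with all libraries was -0.07 against -0.01 over all genes. Among 8 subunits of TRiC, the chaperonin of the cytosol that folds actin and tubulin, 7 were below 0 (median -0.19), and without EGF replicate 5 all 8 were (median -0.16). Cct6a was at 284 ± 16.4 CPM in Saline and 236 ± 29.8 CPM in EGF libraries (SD, n = 5 each; log2 fold change -0.26, SE 0.09), Cct8 at 233 ± 28.1 against 177 ± 40.1 CPM (-0.40, SE 0.16) and Cct2 at 373 ± 27.8 against 333 ± 21.3 CPM (-0.16, SE 0.08). Their edgeR adjusted p was 0.552 each. Tcp1 was the TRiC subunit above 0 with all libraries (0.13) and was at -0.15 without EGF replicate 5.

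All 6 subunits of prefoldin, which hands new chains to TRiC, were below 0 (median -0.15), from -0.01 for Pfdn5 to -0.59 for Pfdn6, and none passed (edgeR adjusted p = 0.563 for Pfdn6, which was at -0.36 without EGF replicate 5). Without EGF replicate 5 the 6 were again below 0 (median -0.07). Of 20 partners of Hsp70 and Hsp90, 14 were below 0 (median -0.07), and again 14 without EGF replicate 5 (median -0.10). Bag2 was furthest below 0 (-0.35, SE 0.19), and the smallest p was that of Ahsa1, which speeds the ATP cycle of Hsp90 (89.0 ± 7.63 CPM in Saline and 74.4 ± 9.26 CPM in EGF libraries, SD, n = 5 each; edgeR adjusted p = 0.552). The prolyl isomerase genes Fkbp4 and Fkbp5 had log2 fold changes of -0.22 (SE 0.11) and -0.21 (SE 0.11). These lists were chosen with earlier results of these data known, so their counts are a description.

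Of the J-domain partners, 8 of 20 were below 0 (median 0.08), and without EGF replicate 5 the count was 12 of 20 (median -0.01). Dnaja3, the J-domain partner of mitochondrial Hsp70, was at 68.3 ± 2.67 CPM in Saline and 52.7 ± 11.2 CPM in EGF libraries (SD, n = 5 each; log2 fold change -0.38, SE 0.14), while Dnajb2 (0.61, SE 0.27) and Dnajc1 (0.62, SE 0.27) were above 0. Without EGF replicate 5 these came to -0.27, 0.37 and 0.23. With all libraries, edgeR's adjusted p was 0.552 for each. Of 9 further Hsp70 and Hsp110 genes tested, 6 were below 0 (median -0.02), and none had an unadjusted p under 0.05 by edgeR. Without EGF replicate 5 there were 7 of 9 below 0 (median -0.14). An unadjusted edgeR p under 0.05 was then found for 2, both lower, namely Hspa9 (-0.17, edgeR adjusted p = 0.279) and Hspa5 (-0.26, edgeR adjusted p = 0.294). Over all genes 15.8% had such a p, and 7.39% were lower. In that fit it held for 5 of 8 TRiC subunits, 3 of 20 partners of Hsp70 and Hsp90 and 1 of 6 prefoldin subunits, all lower. Among the 20 J-domain partners it held for 1 lower and 1 higher gene. Hspa9, the mitochondrial Hsp70, was at 513 ± 44.3 CPM in Saline and 478 ± 51.6 CPM in EGF libraries, Hspa4l was at 60.9 ± 3.86 against 70.3 ± 10.3 CPM, and Hspa2 had a log2 fold change of 0.58 with EGF replicate 5 and -0.14 without it.

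The Hsp90 forms of other compartments, Hsp90b1 of the endoplasmic reticulum and Trap1 of mitochondria, had log2 fold changes of 0.05 and 0.04, and of -0.14 and -0.08 without EGF replicate 5. Of 9 small heat shock proteins 2 could be tested, Hspb6 and Hspb11, with 0 to 39 and 0 to 44 counts per library and log2 fold changes of -1.02 (SE 0.69) and -0.80 (SE 0.71), or -0.70 and -0.48 without EGF replicate 5. Hspb1 (Hsp27), often induced together with Hspa1a, had 0 to 6 counts per library and was not tested. Of the other heat shock factor genes Hsf2 was at 19.2 ± 1.87 CPM in Saline and 23.5 ± 10.9 CPM in EGF libraries (SD, n = 5 each; log2 fold change 0.29, SE 0.26, and -0.04 without EGF replicate 5). Hsbp1, whose product binds Hsf1, was at 51.5 ± 7.52 against 48.4 ± 6.00 CPM (log2 fold change -0.09, and -0.11 without EGF replicate 5).

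**Figure D5:**
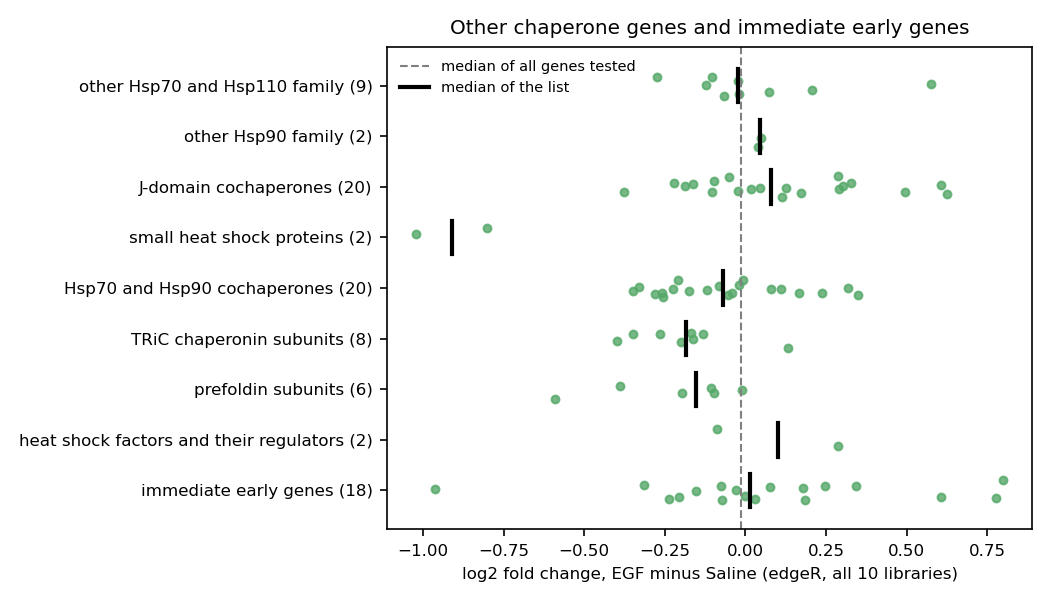
Log2 fold change (horizontal axis, EGF minus Saline, edgeR, all 10 libraries) of the tested genes of 8 further chaperone lists and of the immediate early genes, with the number tested in brackets, the list median as a bar and the median of all genes as a dashed line. TRiC (median -0.19) and prefoldin (-0.15) lie mostly below 0, and the J-domain list is spread on both sides.

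The levels of 18 immediate early genes, which are transcribed within minutes of a stimulus to the cell, were set beside the heat shock genes. Of the 18, 9 were below 0 (median 0.02), and without EGF replicate 5 the count was 6 (median 0.07), where 50.0% of all genes were. In that fit an unadjusted edgeR p under 0.05 was found for 5 higher genes and 1 lower gene. Over all genes 15.8% had such a p, and 7.39% were lower. After adjustment 0 of the 18 passed. The summed level of the 18 was 3749 to 4982 CPM in Saline and 4346 to 5500 CPM in EGF libraries. The Saline library with the lowest sum was replicate 3, 1 of the 3 with high Hspa1 levels, and the highest was replicate 5, another of the 3. Btg2 was at 111 ± 11.3 CPM in Saline and 170 ± 24.6 CPM in EGF libraries (SD, n = 5 each; edgeR adjusted p = 0.402), Nr4a1 at 278 ± 84.2 against 484 ± 104 CPM and Atf3 at 10.4 ± 2.08 against 17.8 ± 7.42 CPM (edgeR adjusted p = 0.552 for both). The log2 fold change of Atf3 was 0.78, or 0.52 without EGF replicate 5 and 0.10 without EGF replicates 3, 4 and 5. Btg2, Nr4a1 and Atf3 had higher means in EGF libraries, where the Hspa1 genes had lower ones, and none passed edgeR's test. Other tools called some of them. Btg2 passed with DESeq2 (adjusted p = 0.00191), with limma-voom and quality weights (adjusted p = 0.0389) and under the 3 added DESeq2 settings (adjusted p = 9.81e-05 to 0.0134). Nr4a1 passed with DESeq2 (adjusted p = 0.0484) and with DESeq2 without EGF replicate 5 (adjusted p = 0.0468), but not with limma-voom (adjusted p = 0.0575) or the other 2 DESeq2 settings (adjusted p = 0.0574 and 0.114). Socs3, a feedback inhibitor of cytokine signalling, was lower without overlap, as were 1.65% of all genes. It was at 28.7 ± 6.87 CPM in Saline and 14.7 ± 6.41 CPM in EGF libraries (SD, n = 5 each; log2 fold change -0.96, SE 0.37, edgeR adjusted p = 0.552), or -0.72 without EGF replicate 5. Btg2 (92.6 to 120 CPM in Saline, 142 to 200 CPM in EGF libraries) and Nr4a1 (189 to 387 against 396 to 655 CPM) were higher without overlap. The share of all genes higher in that way was not counted.

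The genes whose levels ordered the 10 libraries most like the Hspa1 pair were sought among 8895 genes with a mean of at least 10 CPM. They were Plod3, a lysyl hydroxylase of collagen (Spearman's rho 0.976), Cst7, which encodes the protease inhibitor cystatin F (0.976), Ssr1 of the translocon of the endoplasmic reticulum (0.964), B4galnt1, a glycosyltransferase of gangliosides (0.964), and Spcs2 of the signal peptidase (0.964). These are descriptions over 10 libraries of both groups, picked as the highest of the 8895, and carry no test. In Cst7 the Saline values were 20.8, 27.1, 28.5, 37.6 and 33.7 CPM and the EGF values 19.9, 21.4, 17.3, 21.7 and 12.1 CPM in replicates 1 to 5. As for the Hspa1 pair, Saline replicates 3, 4 and 5 were the highest and Saline replicate 1 lay within the EGF range, but the span of Cst7 was far narrower.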

How the data were processed

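The authors deposited 1 file of whole-number counts of reads per gene for each library, with no normalization, for 55573 Ensembl genes. The labels' protocols name the RNeasy Micro kit for RNA and a Clontech kit with rRNA depletion for the libraries. The submitters' processing notes name bcl2fastq 2.17, STAR, GRCm38 and mm10. No counting tool, strand setting or annotation release is given in the sources used here. Of the identifiers, 55480 are in GENCODE M21 (GRCm38), which gave names, positions, exonic lengths and the transcripts for the search of shared 50-base stretches. Every row named a gene. No library repeated another: the chi-square per degree of freedom between 2 libraries of a group was 7.08 to 111. Between a Saline and an EGF library it was 5.94 (Saline replicate 2 and EGF replicate 1) to 124.

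The test was edgeR 4.0.16 (R 4.3.3) on the counts: filterByExpr (minimum count 10), TMM, the quasi-likelihood F test for the EGF term in a fit to the 10 libraries, and Benjamini-Hochberg adjustment over all genes with a threshold of 0.05. All 10 members passed the filter. Standard errors come from the F statistic. Alternatives were RLE, library size and upper quartile scaling, DESeq2 1.42.0, limma-voom 3.58.1 with sample quality weights, a robust fit, other filters, the replicate number as a block, and libraries left out. DESeq2 with other filters or without EGF replicate 5, and levels per transcript length, were added after the data were seen. The procedure was tested on simulated data. The members and lists were chosen with earlier results of these data known. Named genes were all members, the 3 of each list with the smallest p, and the 5 most like Hspa1a plus Hspa1b by rank. Beside these, Tcp1, Pfdn5, Bag2, Hspa5, Hspb1, Socs3, Mpo and C1qa were named after their values were seen. So were Ly6c2, Csf1r, Cd68, C1qb, Adgre1 and Vcam1.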

Additional observations from a re-analysis of the deposited data

Results flagged for a closer look

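Of 30 groups of 5 values examined (the 10 genes and 5 library measures, in each treatment group), 7 held a library far from the other 4, beyond Dixon's 95% limit; chance gives about 1 in 20. EGF replicate 5 was the far library in 5 of the 7. It was high for Hsp90aa1 (3728 CPM, the other EGF libraries at 1321 to 1651), high for Hsp90ab1 (7864 CPM, the others at 3718 to 4224) and low for Dnajb1 (37.0 CPM, the others at 72.4 to 85.9). Its number of genes with a count was low (12731, the others at 18734 to 20046), and the 10 genes together took 1.25% of its counts, against 0.719% to 0.82% in the other EGF libraries. The total count was high in Saline replicate 3 (8370820) and low in EGF replicate 3 (6805106).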

How the results depend on the processing

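The count of all genes called, 1 with all libraries, was 0 with library size scaling, 0 with the replicate block, 0 without EGF replicates 3 and 4, 12 with limma-voom and quality weights, 52 with DESeq2, 28 with DESeq2 on all rows, 45 with DESeq2 without its own filter and 313 with DESeq2 without EGF replicate 5; with any 1 library left out it ranged from 0 to 8. For the 10 members the count was 0 in every edgeR and limma-voom fit and in default DESeq2, 1 under each added DESeq2 filter (Hspa1a) and 2 with DESeq2 without EGF replicate 5. The log2 fold change turned sign for 5 members. With quality weights it was -0.10 for Hsp90aa1, -0.156 for Hsp90ab1 and 0.046 for Hsf1, and without EGF replicates 3, 4 and 5 it was -0.138 for Hsp90aa1 and -0.10 for Hsp90ab1. DESeq2 without EGF replicate 5 gave -0.062 for Hsp90aa1, -0.149 for Hsp90ab1, 0.018 for Dnajb1 and 0.058 for Hsf1. With 1 library left out in edgeR, the range was -0.064 to 0.445 for Hsp90aa1, -0.151 to 0.191 for Hsp90ab1, -0.174 to 0.009 for Hsph1, -0.231 to 0.016 for Dnajb1 and -0.245 to 0.056 for Hsf1; the library that turned the sign was EGF replicate 5, or EGF replicate 3 for Hsph1. Among other named genes, the values with quality weights, by DESeq2 without EGF replicate 5 and without EGF replicates 3, 4 and 5 were -0.014, -0.041 and -0.059 for Hsf2, -0.154, -0.142 and -0.215 for Hsp90b1, -0.101, -0.135 and -0.021 for Hspa2 and -0.077, -0.081 and -0.054 for Trap1. With 1 library left out they ranged from -0.042 to 0.388 (Hsf2), -0.143 to 0.12 (Hsp90b1), -0.137 to 0.738 (Hspa2) and -0.082 to 0.10 (Trap1). Pfdn2 was 0.055 without EGF replicates 3, 4 and 5. The cause of these turns was not tested. The summed Hspa1 row stayed below 0 under all 24 alternatives run and passed under none. The replicate numbers are only numbers: same-numbered libraries did not deviate together (correlations -0.08 to 0.02), and with the block 0 of the 10 members passed. Hspa1a and Hspa1b rest on 1 to 158 counts per library, so their fold changes are imprecise.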
